A study of Mus musculus with 32 samples.

Results

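The difference between frontal cortex of GFAP-IL6 and wild-type (WT) mice was examined gene by gene, by pathway and by brain cell class in 3'Pool-seq libraries made from 50 ng of total RNA. Libraries were chosen by the input amount in their labels, which gave 8 of the 32 libraries of the series, 4 of WT and 4 of GFAP-IL6. All mice were C57BL/6 and 3 months old. GFAP-IL6 mice were homozygous for a transgene that places interleukin 6 (Il6) under the promoter of Gfap, a gene of astrocytes, so the cytokine is made within the brain and by that cell class. WT mice do not carry it, and neither group is labelled with a treatment. The study used these mice as a model of neuroinflammation to ask what a pooled 3' end protocol detects, and the comparison at this input asks which genes, in either direction and of any size, differ between the genotypes. The labels do not state that each library came from a separate animal, so p-values measure the spread between these libraries, which may in part be technical.

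Interleukin 6 binds its receptor Il6ra together with the shared signalling chain gp130 (Il6st), which activates Janus kinases and the transcription factor STAT3. Astrocytes respond to injury and cytokines by raising the intermediate filament Gfap, and microglia, the resident macrophages of the brain, respond by raising complement, Fc receptor, lysosomal and antigen presentation genes. In bulk tissue the level of a cell class gene reflects both how many cells of the class there are and how much of the RNA each holds, and a fall or rise in cell number cannot be told apart here from a change in RNA per cell.

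Library totals ran from 1071895 to 7538356 counts, and 12784 to 13502 genes were above 1 CPM (counts scaled to the same total in each library). A share of 3 counts, taken as the floor of a library, came to between 0.398 and 2.80 CPM, and intervals and floors cover counting error only. GFAP-IL6 4, the fourth GFAP-IL6 replicate, stood apart. Its first principal component score was 64.3, against -15.3 to -3.5 in the other 7 libraries, on a component that held 32.0% of the variance. It correlated with the other GFAP-IL6 libraries at 0.920 to 0.938 (Pearson's r across genes, log2(CPM + 1)), whereas the other pairs of replicates correlated at 0.953 to 0.980. Its distance from the other GFAP-IL6 libraries followed gene length. With tested genes split by length into 5 equal bins, its median log2 CPM difference from the other 3 was -0.66 in the shortest bin and 0.64 in the longest, while such differences ran from -0.22 to 0.26 in the other 7 libraries. Long intergenic noncoding RNAs took 6.36% of its counts and 1.96% to 3.63% of the others. Results are therefore given for all 8 libraries and again without GFAP-IL6 4, and what made this library differ was not tested.

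**Figure D1:**
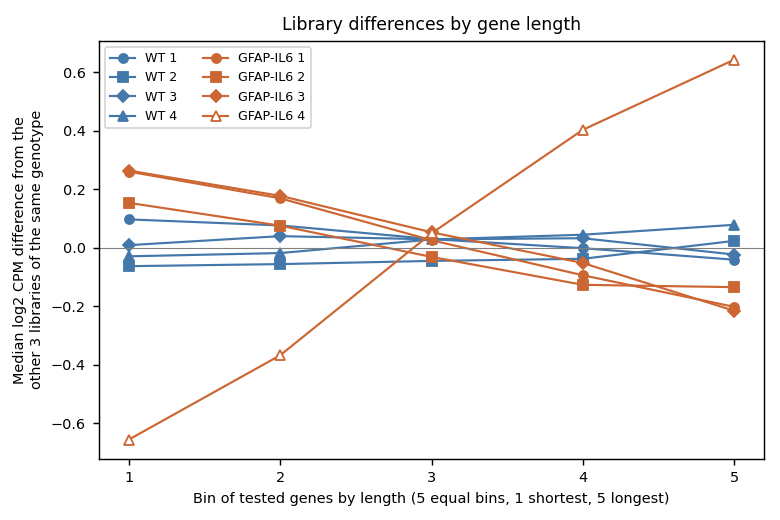
Median log2 CPM difference of each library from the other 3 libraries of its genotype (y axis) over 5 equal bins of the tested genes by length (x axis). GFAP-IL6 4 (open triangles) runs from -0.66 in the shortest to 0.64 in the longest bin, and the other 7 libraries stay between -0.22 and 0.26.

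Il6 itself was read first as a check of the labels. Its gene lies at chr5:30013114-30019981 (GRCm38). WT libraries held 0.277, 0, 0 and 0.133 CPM and GFAP-IL6 libraries 4.92, 8.396, 5.07 and 0.717 CPM, from 1, 0, 0 and 1 counts in WT and 17, 9, 22 and 4 counts in GFAP-IL6. Every GFAP-IL6 library lay above every WT library, by a mean of 4.68 CPM (exact permutation test, two-sided, p = 0.0286, which is the lowest 4 against 4 can reach). Pooled over libraries the ratio was 28.9 with a 95% exact counting interval of 7.62 to 245.3. Il6 counts were thus few, below the count filter of the 8-library edgeR fit, and the GFAP-IL6 library with the lowest level was GFAP-IL6 4. Counts from the transgene and from the gene's own locus cannot be told apart here.

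Of 11773 genes tested, 33 were called higher in GFAP-IL6 (0.28%) and 0 lower (0%) at a Benjamini-Hochberg adjusted p under 0.05 by edgeR's quasi-likelihood test. All adjusted p-values below are from that test, and log2 fold changes are GFAP-IL6 against WT. All 33 called genes had a log2 fold change above 1, from 1.04 to 4.13, so each was also a differentially expressed gene (DEG) by the 2-fold threshold and none was called under it. In 32 of the 33 the lowest GFAP-IL6 library lay above the highest WT library, against 256 (2.17%) of all tested genes, and 136 (1.16%) separated in the lower direction. At an unadjusted p under 0.05 there were 486 higher (4.13%) and 177 lower genes (1.5%). DESeq2 called 44 higher and 0 lower. Leaving out a library other than GFAP-IL6 4 left 11 to 23 calls, and 11 genes were called whichever single library was left out.

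Without GFAP-IL6 4, 78 of 11934 genes were called higher (0.654%) and again 0 lower (0%), with 464 (3.89%) higher and 244 (2.04%) lower at an unadjusted p under 0.05. Of the 33 genes, 32 were called again, the exception being Mpeg1, and 46 were added. The 46 include 19 genes under 2-fold, from 0.51 to 0.997 on the log2 scale. All 74 of the 78 genes that were also tested with 8 libraries had a positive log2 fold change there. The edgeR coefficient of variation between replicates was 0.214 with GFAP-IL6 4 and 0.130 without it, which sets how small a change each fit could call. Some genes short of the threshold in the edgeR fit of 8 libraries passed it in the same libraries by DESeq2, by limma with quality weights, which gave GFAP-IL6 4 a low weight, or in edgeR with the length trend of each library removed, Tyrobp, Trem2, Grn, Ly6a and Ly6c1 by both of the last 2.

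**Figure D2:**
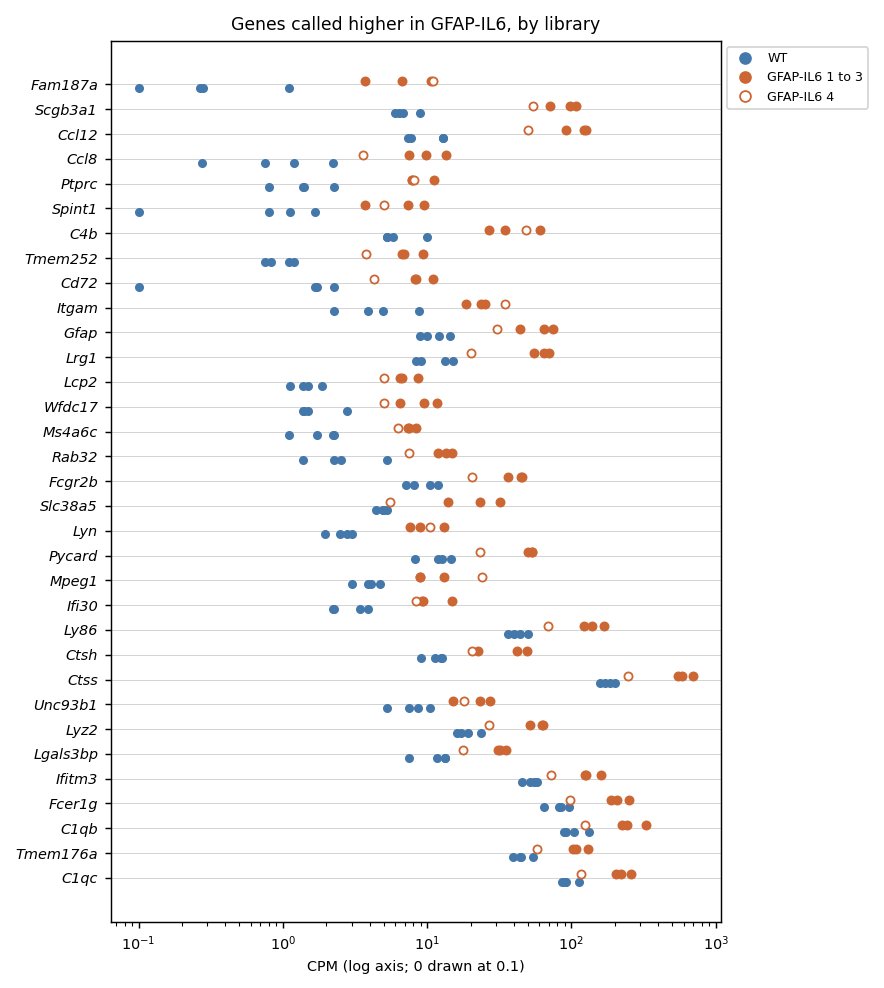
CPM on a log axis (x) of the 33 genes called higher with 8 libraries (y, ordered by log2 fold change), 1 point a library. GFAP-IL6 points lie to the right of all WT points except for C1qb, where GFAP-IL6 4 (open) falls within WT, and GFAP-IL6 4 is the lowest GFAP-IL6 library for most genes.

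Promoters are shown for 5 of the called genes, an astrocyte filament, a secreted protein, an inflammasome adaptor, a complement chain and a membrane lectin. All 5 hold a match to a motif searched for, so they do not stand for the called genes, most of which hold none. The motifs were searched because STAT3 and PU.1 (Spi1) are textbook regulators of astrocyte and myeloid genes. Of the 33 genes, 28 had a promoter in RefSeq's GRCm38.p6 table, and C4b, Fam187a, Ctsh, Lyn and Unc93b1 had none. Windows of 220 bases, from 200 before the listed start to 20 after it, are written 5′ to 3′ on the gene's strand, with motif matches in capitals. The STAT-type motif TTCNNNGAA reads the same on both strands, and the PU.1-type motif GAGGAAGT was searched on both strands. The first was in the promoters of 2 of the 28 genes, Scgb3a1 and Gfap, in 6.05% of all 32851 promoters and in 4.78% of those of tested genes. The second was in 6 of the 28, Scgb3a1, Pycard, Ctss, C1qc, Rab32 and Cd72, in 2.34% of all promoters and in 2.14% of those of tested genes. The match in Gfap spans the listed start, which lies inside the gene as GENCODE draws it. A match is a string of letters and not a measured binding site.
Gfap, chr11:102897181-102897400, minus strand: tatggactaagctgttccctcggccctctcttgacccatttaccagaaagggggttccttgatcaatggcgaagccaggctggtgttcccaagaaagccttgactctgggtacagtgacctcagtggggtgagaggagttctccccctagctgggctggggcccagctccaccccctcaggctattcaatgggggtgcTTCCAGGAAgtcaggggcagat
Scgb3a1, chr11:49663395-49663614, plus strand: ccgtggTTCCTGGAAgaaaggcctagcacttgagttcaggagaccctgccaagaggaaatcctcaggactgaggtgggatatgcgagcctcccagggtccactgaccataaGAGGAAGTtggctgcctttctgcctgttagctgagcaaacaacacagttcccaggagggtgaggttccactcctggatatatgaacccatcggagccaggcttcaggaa
Pycard, chr7:127993848-127994067, minus strand: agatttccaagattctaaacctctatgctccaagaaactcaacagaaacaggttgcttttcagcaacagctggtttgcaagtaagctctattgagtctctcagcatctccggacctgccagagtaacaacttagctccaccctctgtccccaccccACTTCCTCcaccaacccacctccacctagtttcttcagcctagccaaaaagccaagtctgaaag
C1qc, chr4:136892895-136893114, minus strand: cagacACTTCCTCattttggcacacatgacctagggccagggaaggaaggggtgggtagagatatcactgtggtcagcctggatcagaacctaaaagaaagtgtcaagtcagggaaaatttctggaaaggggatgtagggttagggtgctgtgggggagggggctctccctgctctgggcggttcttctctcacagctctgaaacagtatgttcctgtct
Cd72, chr4:43454607-43454826, minus strand: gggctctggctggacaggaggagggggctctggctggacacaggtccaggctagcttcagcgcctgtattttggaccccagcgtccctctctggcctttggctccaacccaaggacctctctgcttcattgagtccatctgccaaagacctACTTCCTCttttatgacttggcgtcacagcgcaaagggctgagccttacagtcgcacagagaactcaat

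Among astrocyte genes, Gfap rose and most others did not pass the test. Gfap, at chr11:102887336-102900912, held 9.96, 12.04, 14.5 and 8.89 CPM in WT and 43.7, 64.4, 74.01 and 30.6 CPM in GFAP-IL6. Its groups were well apart (log2 fold change 2.2, SE 0.27, adjusted p = 0.000113), with the smallest rise in GFAP-IL6 4. Of 23 tested genes of the reactive astrocyte list it was the only one called (against 0.28% of all genes), and 3 were called without GFAP-IL6 4 (against 0.654%), the others being the immunoproteasome subunit Psmb8 and the lipopolysaccharide co-receptor Cd14, which myeloid cells also express. The median log2 fold change of the list was 0.47, and 0.50 without GFAP-IL6 4, against -0.0034 and -0.0027 over all tested genes. The filament gene Vim and the serpin Serpina3n, both named here after their values were seen, were not called. Vim held 21.3, 30.1, 14.5 and 14.3 CPM in WT and 27.8, 22.4, 32.3 and 22.04 CPM in GFAP-IL6 (log2 fold change 0.42, adjusted p = 0.835). Serpina3n held 11.3, 8.27, 14.5 and 7.43 CPM in WT and 13.3, 11.2, 18.2 and 10.04 CPM in GFAP-IL6 (log2 fold change 0.32, adjusted p = 0.841). The groups overlapped for both. Osmr, the oncostatin M receptor, held 0.553, 3.76, 0.278 and 0.663 CPM in WT and 3.77, 2.799, 2.997 and 12.01 CPM in GFAP-IL6. Its log2 fold change of 2.67 (adjusted p = 0.117) rested in part on GFAP-IL6 4 and was 1.85 (adjusted p = 0.449) without it.

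None of 28 tested homeostatic astrocyte genes was called, with a median of -0.038 and 0.049 without GFAP-IL6 4. Btbd17, which had the smallest unadjusted p of those with a negative change, held 35.98, 32.3, 48.7 and 36.7 CPM in WT and 29.3, 38.2, 37.4 and 20.3 CPM in GFAP-IL6 (log2 fold change -0.37, adjusted p = 0.835).

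The called gene with the smallest p was Scgb3a1, a small secreted secretoglobin at chr11:49663610-49665118. WT libraries held 6.36, 6.77, 8.904 and 5.97 CPM and GFAP-IL6 libraries 71.5, 97.02, 108 and 53.9 CPM (log2 fold change 3.52, SE 0.25, adjusted p = 2.43e-08). The lowest GFAP-IL6 library was over 6 times the highest WT library. Lrg1, the acute phase leucine-rich alpha-2 glycoprotein, held 13.3, 9.03, 15.03 and 8.36 CPM in WT and 55.3, 64.4, 69.9 and 20.1 CPM in GFAP-IL6 (log2 fold change 2.13, SE 0.31, adjusted p = 0.00104), and here GFAP-IL6 4 lay close to WT. Of 7 tested genes of the acute phase list Lrg1 was the only call, against 0.28% of all genes, and the list median was 0.31. No count in any library was found for 9 of the 27 listed genes, among them the fibrinogen chains Fga, Fgb and Fgg and the C-reactive protein gene Crp. Tmem252 held 1.11, 0.752, 0.835 and 1.19 CPM in WT and 6.95, 9.33, 6.69 and 3.76 CPM in GFAP-IL6 (log2 fold change 2.53, SE 0.46, adjusted p = 0.0123). Spint1, a membrane-bound inhibitor of serine proteases, held 1.66, 0, 1.11 and 0.796 CPM in WT and 9.56, 3.73, 7.38 and 5.02 CPM in GFAP-IL6 (log2 fold change 2.66, SE 0.50, adjusted p = 0.0139). For both the groups were apart, but on few counts, and the call was lost in 7 of 8 and 5 of 8 fits that left out 1 library. Their WT means (0.972 and 0.892 CPM) were below the count filter.

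Of the complement genes 4 rose. C4b, the thioester protein of the classical pathway, lies at chr17:34728380-34743882 beside a close copy that can share reads with it. It held 5.81, 5.27, 10.02 and 5.31 CPM in WT and 26.9, 34.5, 60.4 and 48.6 CPM in GFAP-IL6 (log2 fold change 2.66, SE 0.28, adjusted p = 1.43e-05), and GFAP-IL6 4 was within the range of its replicates. C1qb and C1qc encode chains of the recognition protein C1q, which in the brain comes mostly from microglia. C1qc held 85.5, 91.02, 112 and 90.5 CPM in WT and 221, 203, 258 and 117 CPM in GFAP-IL6 (log2 fold change 1.04, SE 0.20, adjusted p = 0.0208). C1qb, a call outside the naming rule, held 104, 88.8, 131 and 92.2 CPM in WT and 241, 224, 329 and 124 CPM in GFAP-IL6 (log2 fold change 1.1, adjusted p = 0.0235). In both, 3 GFAP-IL6 libraries were far above WT and GFAP-IL6 4 was near the highest WT library. Both calls were lost in 6 of the 8 fits that left out 1 library. Itgam, the alpha chain of complement receptor 3, held 8.86, 2.26, 3.896 and 4.91 CPM in WT and 23.8, 18.7, 25.1 and 34.6 CPM in GFAP-IL6 (log2 fold change 2.26, SE 0.31, adjusted p = 0.000614). Of 14 tested complement genes 4 were called (against 0.28% of all genes), and the same number without GFAP-IL6 4 (against 0.654%). The median was 1.02 and 1.16 without that library. Factors of the alternative and terminal pathways, Cfb, Cfd, Cfi, Hc, C6, C8a and C9, had no count in any library.

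Among chemokines, 2 of 15 tested genes were called (against 0.28% of all genes), Ccl12 and Ccl8. These ligands attract monocytes and lie in the same cluster on chromosome 11. Ccl12 held 7.75, 12.8, 12.8 and 7.43 CPM in WT and 123, 91.4, 127 and 49.6 CPM in GFAP-IL6 (log2 fold change 3.29, SE 0.28, adjusted p = 4.98e-07). Its lowest GFAP-IL6 library, GFAP-IL6 4, was still several times the highest WT library. Ccl8 held 0.277, 0.752, 2.23 and 1.19 CPM in WT and 9.85, 7.46, 13.6 and 3.58 CPM in GFAP-IL6 (log2 fold change 2.81, SE 0.52, adjusted p = 0.0123), on few counts. Its WT mean (1.11 CPM) was below the count filter, and the call was lost in 5 of the 8 fits that left out 1 library. The median of the list was 0.18, and 0.31 without GFAP-IL6 4. Ccl2, named after its values were seen, was below the filter, with 0.277, 0, 1.11 and 0.133 CPM in WT and 2.03, 0.933, 2.08 and 0 CPM in GFAP-IL6.

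Genes shared by microglia and other myeloid cells gave the most calls of any list. Of 18 tested pan-myeloid genes, 6 were called higher and 14 were higher at an unadjusted p under 0.05, against 0.28% and 4.13% of all genes, with a median of 0.95. Without GFAP-IL6 4 there were 11 calls of 19, against 0.654% of all genes, and the median was 1.15. The median difference of the list from the WT mean was 0.88, 1.03 and 1.32 in GFAP-IL6 1 to 3 and 0.42 in GFAP-IL6 4, and -0.091 to 0.022 in the WT libraries. Ly86 (MD-1, a partner of the Toll-like protein Cd180) held 44.001, 50.4, 36.5 and 40.1 CPM in WT and 169, 123, 138 and 68.999 CPM in GFAP-IL6 (log2 fold change 1.52, SE 0.23, adjusted p = 0.00126). Ptprc, the leukocyte phosphatase CD45, held 1.38, 2.26, 1.39 and 0.796 CPM in WT and 7.82, 11.2, 7.84 and 8.06 CPM in GFAP-IL6 (log2 fold change 2.69, SE 0.42, adjusted p = 0.00227). For this gene all GFAP-IL6 libraries, GFAP-IL6 4 included, were far above WT, on few counts. Its WT mean (1.46 CPM) was below the count filter, so it entered the fit through the GFAP-IL6 libraries. Lyz2, lysozyme, held 19.1, 17.3, 23.7 and 16.2 CPM in WT and 62.6, 51.3, 63.4 and 26.7 CPM in GFAP-IL6 and was a call on a smaller change (log2 fold change 1.38, SE 0.25, adjusted p = 0.01197). This call was lost in 5 of the 8 fits that left out 1 library. Itgam, given above with complement, Fcer1g and Unc93b1, the chaperone of endosomal Toll-like receptors, were the remaining calls. Unc93b1 lost its call in 6 of those fits. Of the 6 calls, Itgam also counts in the complement list, Ptprc and Fcer1g in the Fc receptor list and Lyz2 in the cathepsin and lysosome list. Among those not called, Aif1 (Iba1, a common stain for microglia) held 44.3, 35.4, 41.2 and 37.5 CPM in WT and 88.1, 62.5, 109.7 and 50.9 CPM in GFAP-IL6, with no overlap between groups. It was short of the threshold in the edgeR fit of 8 libraries (log2 fold change 0.94, adjusted p = 0.0865) and passed it without GFAP-IL6 4, at 1.15 (adjusted p = 2.48e-05). With all 8 libraries it was called by DESeq2 (adjusted p = 0.0213), by limma with quality weights (adjusted p = 1.01e-05) and with the length trend removed (adjusted p = 0.000675).

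Fc receptor and phagocytic signalling genes gave 5 calls of 25 tested and 16 higher at an unadjusted p under 0.05, against 0.28% and 4.13% of all genes, with a median of 1.11. Some of these genes, 7 of the 25, had a WT mean below the count filter of about 2.77 CPM and entered the fit through the GFAP-IL6 libraries, as did 10 of the 33 called genes, so the counts and medians of this list and the others are descriptions. Fcgr2b, the inhibitory Fc gamma receptor, held 11.9, 10.5, 8.07 and 7.16 CPM in WT and 36.2, 45.7, 44.7 and 20.4 CPM in GFAP-IL6 (log2 fold change 1.93, SE 0.28, adjusted p = 0.00102). Fcer1g, the signalling chain shared by Fc receptors, held 84.4, 64.7, 95.7 and 82.4 CPM in WT and 206, 188, 250.2 and 97.7 CPM in GFAP-IL6 (log2 fold change 1.13, adjusted p = 0.0208). Both were higher in every GFAP-IL6 library, with GFAP-IL6 4 the lowest. Lyn, a Src family kinase of these receptors, held 2.49, 3.01, 1.95 and 2.79 CPM in WT and 8.98, 13.1, 7.61 and 10.4 CPM in GFAP-IL6 (log2 fold change 1.89, SE 0.36, adjusted p = 0.0208). Lcp2, the adaptor SLP-76, was also called, at 2.09. The calls on Fcer1g and Lyn were each lost in 6 of the 8 fits that left out 1 library, and that on Lcp2 in 7. Fcgr3, an activating receptor, held 37.1, 36.1, 35.6 and 30.5 CPM in WT and 84.6, 96.1, 106 and 26.7 CPM in GFAP-IL6. GFAP-IL6 1 to 3 were far above every WT library while GFAP-IL6 4 was below all of them, and edgeR gave 1.45 (adjusted p = 8.3e-08) without that library and 1.11 (adjusted p = 0.165) with it. With all 8 libraries it was called by limma with quality weights (adjusted p = 2.16e-07) and with the length trend removed (adjusted p = 0.00905). Without GFAP-IL6 4 the list had 10 calls of 28 (against 0.654% of all genes), which added Tyrobp, Trem2, Rac2 and Fcgr1. All 28 had a positive log2 fold change, against 5911 of all 11934 genes. Members that enter a fit through the GFAP-IL6 libraries are favoured to be positive by the filter, so this count too is only a description.

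Markers of resting microglia had no call in the edgeR fit of 8 libraries. Of 26 tested homeostatic microglia genes, 8 were higher at an unadjusted p under 0.05 (against 4.13% of all genes), and the median was 0.48. Without GFAP-IL6 4 there were 3 calls (against 0.654% of all genes), which included Fcgr3 and the Fc receptor-like Fcrls. With all 8 libraries limma with quality weights called both (adjusted p = 2.16e-07 and 0.0173). Fcgr3 was also called with the length trend removed (adjusted p = 0.00905). The defining genes P2ry12, Tmem119 and Cx3cr1, named after their values were seen, were present in every library. P2ry12, a purine receptor, held 70.01, 75.97, 58.99 and 63.3 CPM in WT and 66.9, 57.8, 75.4 and 37.99 CPM in GFAP-IL6 (log2 fold change -0.21, 0.012 without GFAP-IL6 4). Tmem119 held 15.5, 24.8, 22.5 and 15.7 CPM in WT and 22.6, 19.6, 31.8 and 20.97 CPM in GFAP-IL6 (log2 fold change 0.30, 0.42). Cx3cr1, the fractalkine receptor, held 21.3, 32.3, 34.2 and 34.9 CPM in WT and 46.6, 27.99, 41.7 and 51.1 CPM in GFAP-IL6 (log2 fold change 0.45, 0.37). The groups overlapped for all 3, and none was called with or without GFAP-IL6 4. The difference between these genes and the pan-myeloid genes was not tested.

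Of 16 tested genes described in disease-associated microglia, 2 were called (against 0.28% of all genes). Lgals3bp, a secreted galectin partner that interferons also raise, held 11.6, 7.52, 13.4 and 13.4 CPM in WT and 31.9, 30.8, 35.04 and 17.7 CPM in GFAP-IL6 (log2 fold change 1.22, SE 0.26, adjusted p = 0.0359). Cd72, an inhibitory lectin, held 1.66, 2.26, 0 and 1.72 CPM in WT and 11.01, 8.396, 8.30002 and 4.301 CPM in GFAP-IL6 (log2 fold change 2.48, SE 0.53, adjusted p = 0.0417). Both calls were lost in 7 of the 8 fits that left out 1 library, and Cd72 had a WT mean (1.41 CPM) below the count filter. The median was 0.19 with 8 libraries and 0.52 without GFAP-IL6 4, where 6 of 18 were called (against 0.654% of all genes). These added Cst7, Cd52, Ch25h and Cd9. Cd9 was called at 0.52 (adjusted p = 0.0414), and edgeR gave 0.20 (adjusted p = 0.884) with 8 libraries. GFAP-IL6 4 held 61.7 CPM of Cd9, below every WT library (119 to 173 CPM). Limma with quality weights did not call Cd9 (adjusted p = 0.159). Cst7, a cystatin of the lysosomal pathway and named after its values were seen, held 1.66, 0, 1.67 and 0.796 CPM in WT and 8.98, 10.3, 6.69 and 2.15 CPM in GFAP-IL6 and was below the filter of the 8-library fit. Clec7a, another marker of the state, had no count in any library.

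Few markers of other immune cells passed the count filter. Of 14 perivascular macrophage and monocyte genes 1 was tested, the platelet factor Pf4, which held 8.58, 9.78, 7.23 and 4.91 CPM in WT and 4.06, 10.3, 7.15 and 4.301 CPM in GFAP-IL6 (log2 fold change -0.34, adjusted p = 0.863). Their summed level was 15.3 to 19.6 CPM in WT and 12.2 to 22.6 CPM in GFAP-IL6. Of 23 lymphocyte and neutrophil genes 1 was tested, Ighm, at 59.2, 60.9, 66.5 and 53.7 CPM in WT and 79.9, 55.98, 66.9 and 26.2 CPM in GFAP-IL6 (log2 fold change -0.11, adjusted p = 0.933). The T cell genes Cd3e, Cd3d and Cd8a, the B cell gene Ms4a1 and the neutrophil gene Ly6g had no count in any library. Summed levels of that list were 61.0 to 73.2 CPM in WT and 31.2 to 93.0 CPM in GFAP-IL6.

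**Figure D3:**
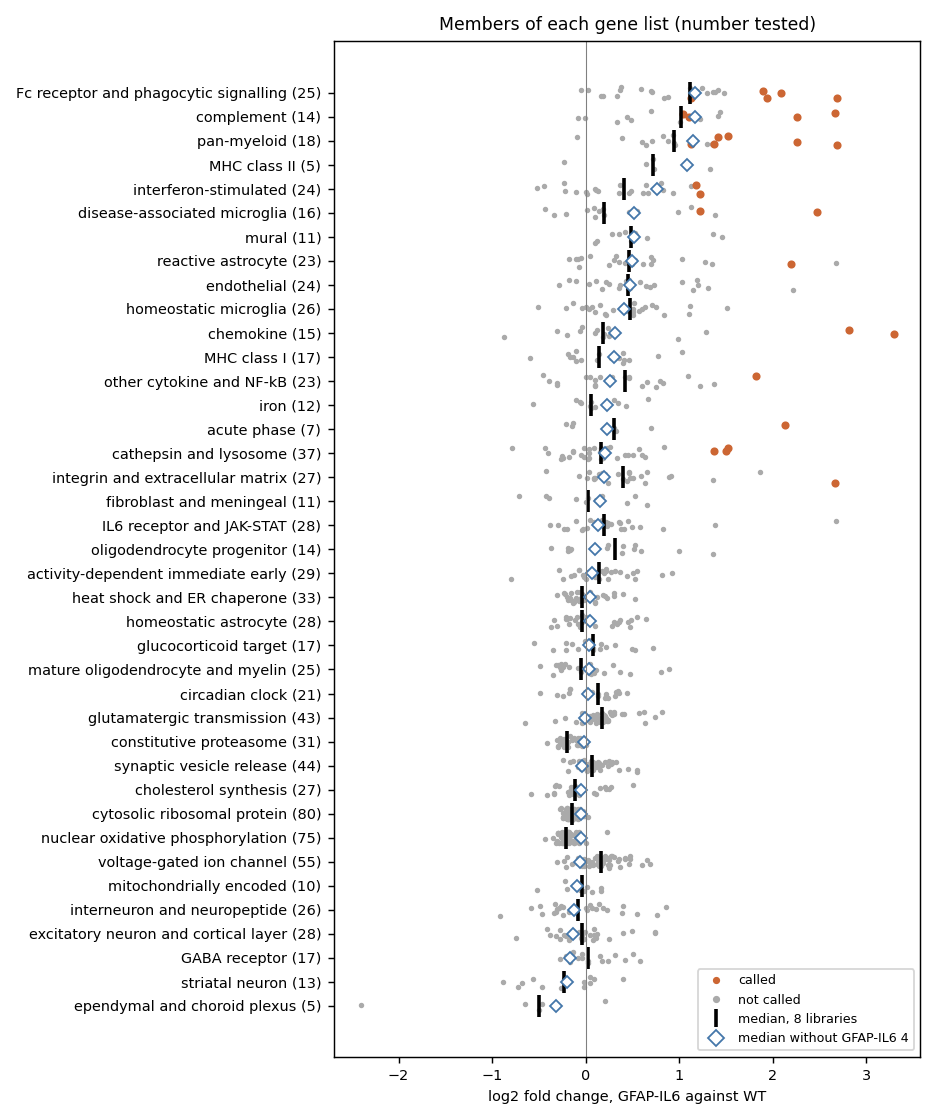
log2 fold change with 8 libraries (x axis) of the tested members of each list with at least 5 (y axis), 1 point a gene, orange where called. Bars mark the median with 8 libraries and diamonds the median without GFAP-IL6 4, which is above 1 for the Fc receptor (1.17), complement (1.16), pan-myeloid (1.15) and MHC class II (1.08) lists.

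Among lysosomal genes 3 rose. Ctss, cathepsin S, the most abundant of the called genes, held 199, 157, 185 and 172 CPM in WT and 587, 546, 694 and 247 CPM in GFAP-IL6 (log2 fold change 1.5, SE 0.22, adjusted p = 0.00126). Ctsh, cathepsin H, held 12.7, 9.03, 12.5 and 11.3 CPM in WT and 41.998, 22.4, 49.3 and 20.6 CPM in GFAP-IL6 (log2 fold change 1.52, SE 0.27, adjusted p = 0.01197). With Lyz2 these made 3 calls of 37 tested genes of the cathepsin and lysosome list, against 0.28% of all genes. The call on Ctsh was lost in 4 of the 8 fits that left out 1 library, and that on Lyz2 in 5. The list median was 0.16. Without GFAP-IL6 4 there were 9 of 38 (against 0.654% of all genes), and Ctsc, Grn, Ctsz, Cd68 and Cst7 were among those added, with a median of 0.21. Ctsc, cathepsin C, held 15.8, 8.27, 16.7 and 7.83 CPM in WT and 35.05, 33.6, 47.7 and 14.7 CPM in GFAP-IL6, with log2 fold change 1.37, adjusted p = 0.0874 in 8 libraries and 1.68 (adjusted p = 5.92e-05) in 7. With 8 libraries it was called by DESeq2 (adjusted p = 0.0255), by limma with quality weights (adjusted p = 1.87e-06) and with the length trend removed (adjusted p = 0.0259). Most of this list moved little, and 12 of 37 had a negative log2 fold change.

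Pycard, the inflammasome adaptor ASC, held 14.7, 8.27, 11.97 and 12.6 CPM in WT and 53.3, 50.4, 53.03 and 23.3 CPM in GFAP-IL6 (log2 fold change 1.82, SE 0.27, adjusted p = 0.00104). GFAP-IL6 1 to 3 were close together and GFAP-IL6 4 was far under them, though above WT. It was the only call of 23 tested genes of the list of other cytokines and NF-kB, against 0.28% of all genes. In that list Ifngr1, the interferon gamma receptor, was called without GFAP-IL6 4.

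Interferon-stimulated genes gave 2 calls of 24 (against 0.28% of all genes), Ifitm3 and Lgals3bp. Ifitm3, which restricts virus entry, held 54.8, 57.9, 51.5 and 45.1 CPM in WT and 127, 125, 160.2 and 71.7 CPM in GFAP-IL6 (log2 fold change 1.17, SE 0.21, adjusted p = 0.0115). Its call was lost in 4 of the 8 fits that left out 1 library. The list median was 0.41, and 0.76 without GFAP-IL6 4. In the MHC class I and class II lists no gene was called by edgeR with 8 libraries. H2-K1, a classical MHC class I heavy chain whose reads close copies can share, held 45.4, 45.1, 52.6 and 47.8 CPM in WT and 113, 79.3, 93.1 and 50.5 CPM in GFAP-IL6 (log2 fold change 0.78, SE 0.21, adjusted p = 0.252). B2m, the light chain of class I and named after its values were seen, held 479, 487, 519.8 and 525 CPM in WT and 724, 664, 783 and 319 CPM in GFAP-IL6. In these genes GFAP-IL6 1 to 3 were above all WT libraries and GFAP-IL6 4 was not. Without it H2-K1 was called at 0.997 (adjusted p = 5.43e-05), B2m at 0.51 (adjusted p = 0.00269), and H2-D1 and Psmb8 as well, 4 of 17 tested (against 0.654% of all genes). The class II beta chain H2-Ab1 held 5.53, 3.76, 3.896 and 3.58 CPM in WT and 9.56, 9.33, 20.3 and 4.301 CPM in GFAP-IL6 and edgeR gave 1.69 (adjusted p = 0.00639) without GFAP-IL6 4 and 1.33 (adjusted p = 0.457) with it. Limma with quality weights called H2-Ab1 (adjusted p = 0.00575), H2-K1 (adjusted p = 3.48e-05) and B2m (adjusted p = 0.0208) with all 8 libraries, and H2-K1 was also called with the length trend removed (adjusted p = 0.00410).

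The IL6 receptor and JAK-STAT list had no call among 28 tested genes in either fit, with medians of 0.20 and 0.13. Stat3, named after its values were seen, held 19.9, 15.8, 20.3 and 20.3 CPM in WT and 25.5, 19.6, 20.3 and 42.8 CPM in GFAP-IL6 (log2 fold change 0.49, 0.16 without GFAP-IL6 4). Its feedback target Socs3, also named afterwards, was under the filter, at 0, 0, 0.557 and 0.531 CPM in WT and 1.74, 3.73, 1.84 and 2.69 CPM in GFAP-IL6. All 4 GFAP-IL6 libraries lay above all WT libraries for Socs3, on at most 15 counts a library. Il11ra1, the member with the smallest unadjusted p among those with a negative change, held 26.8, 25.6, 34.8 and 23.6 CPM in WT and 22.3, 22.4, 28.4 and 19.4 CPM in GFAP-IL6 (log2 fold change -0.30, adjusted p = 0.837).

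Of the other called genes, Fam187a had the largest log2 fold change. It held 1.11, 0, 0.278 and 0.265 CPM in WT and 6.66, 3.73, 10.6 and 10.9 CPM in GFAP-IL6 (log2 fold change 4.13, SE 0.56, adjusted p = 0.000508), from at most 4 counts in a WT library. Fam187a (chr11:102885169-102886731, plus strand) ends within 1000 bases of the 3' end of Gfap on the opposite strand and overlaps Ccdc103 and Gm26668. The sources do not say whether reads were assigned by strand, so its counts and those of Gfap may not be fully separate. Tmem176a, called at 1.08, likewise overlaps Tmem176b on the opposite strand, which held 57.6, 51.9, 57.6 and 66.99 CPM in WT and 119, 107, 139 and 63.6 CPM in GFAP-IL6 and was called without GFAP-IL6 4. Further calls outside the naming rule were Rab32 (a GTPase of lysosome-related organelles, 1.96), Ms4a6c (1.99), Ifi30 (a lysosomal thiol reductase of antigen processing, 1.73), Wfdc17 (2.06), Mpeg1 (the macrophage pore protein perforin-2, 1.75) and Slc38a5 (an amino acid transporter, 1.91), all as log2 fold changes with 8 libraries. Each of the calls on Tmem176a and from Rab32 to Slc38a5 was lost in 6 or 7 of the 8 fits that left out 1 library. Slc38a5 held 4.98, 5.27, 4.45 and 4.91 CPM in WT and 23.2, 13.99, 32.05 and 5.56 CPM in GFAP-IL6, so GFAP-IL6 4 was barely above WT. Mpeg1, a long transcript, held 3.87, 3.01, 4.73 and 4.11 CPM in WT and 8.98, 13.1, 8.99 and 24.02 CPM in GFAP-IL6, highest in GFAP-IL6 4, and was not called without it (adjusted p = 0.135).

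Changes under 2-fold did not reach the threshold in the edgeR fit of 8 libraries, and 19 did without GFAP-IL6 4. These genes fell mostly into classes already described, such as Tyrobp, H2-D1, Grn, Ctsz, Cd68, Fcrls and Cd9. All of these names were chosen after their values were seen, other than H2-K1. Tyrobp, the adaptor DAP12 of Trem2, held 83.02, 58.7, 94.3 and 78.001 CPM in WT and 141, 123, 187 and 77.8 CPM in GFAP-IL6, which gave a log2 fold change of 0.92 (adjusted p = 0.000113) without GFAP-IL6 4 and 0.70 with it. GFAP-IL6 1 to 3 exceeded all WT libraries and GFAP-IL6 4 lay within the WT range. Others came from endothelial and glial genes. The endothelial Ly6a held 56.7, 48.1, 55.1 and 56.9 CPM in WT and 79.9, 104, 123 and 65.6 CPM in GFAP-IL6, and all 4 GFAP-IL6 libraries were above WT (0.88 (adjusted p = 0.000374) without GFAP-IL6 4, 0.72 with it). The endothelial Ly6c1 held 84.96, 71.5, 93.2 and 87.6 CPM in WT and 119, 146, 139 and 79.04 CPM in GFAP-IL6 (0.63 and 0.46). Igfbp7, Id1 and Id3, the last 2 being inhibitors of DNA binding that bone morphogenetic proteins induce, were called at 0.69, 0.79 and 0.56 without GFAP-IL6 4. With 8 libraries edgeR gave 0.53, 0.57 and 0.26 (adjusted p = 0.711, 0.833 and 0.844). Limma with quality weights called Igfbp7 and Id1 with all 8 and did not call Id3 (adjusted p = 0.0897). For Id3, GFAP-IL6 4 (61.3 CPM) lay below every WT library (99.6 to 131 CPM). Apod, an apolipoprotein of oligodendrocytes, was called at 0.59 without GFAP-IL6 4 and not with it by edgeR (log2 fold change 0.37, adjusted p = 0.835). It held 201, 253, 266 and 205 CPM in WT and 307, 262, 475 and 179 CPM in GFAP-IL6, where GFAP-IL6 3 was highest.

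**Figure D4:**
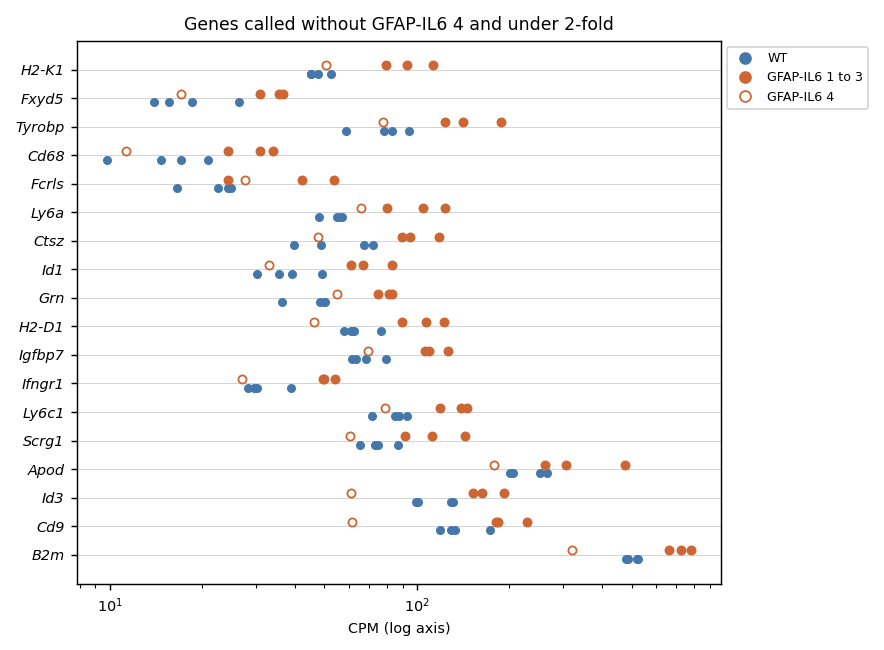
CPM on a log axis (x) of 18 of the 19 genes called under 2-fold without GFAP-IL6 4 (y, ordered by that log2 fold change), 1 point a library. Filled GFAP-IL6 points lie to the right of WT for nearly all, while GFAP-IL6 4 (open) lies within, below or at the upper edge of WT for most.

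Vessel genes had no call in the 8-library edgeR fit, while their medians were above that of all genes. Of 24 tested endothelial genes, 9 were higher at an unadjusted p under 0.05 and 5 had no overlap between groups, all higher, against 4.13% and 2.17% of all genes, with a median of 0.46, and 0.47 without GFAP-IL6 4. Vwf, von Willebrand factor, held 2.49, 0, 4.45 and 0.531 CPM in WT and 5.21, 12.1, 7.84 and 12.9 CPM in GFAP-IL6 (log2 fold change 2.22, SE 0.53, adjusted p = 0.116), and was not called without GFAP-IL6 4 either. With 8 libraries Vwf was called by DESeq2 (adjusted p = 0.0368) and by limma with quality weights (adjusted p = 0.000932), and edgeR called it in 1 of the 8 fits that left out 1 library. The WT mean was below the count filter for 3 of the 24 genes, Vwf among them (1.87 CPM). Egfl7, on the other side, held 30.7, 39.1, 43.7 and 31.7 CPM in WT and 31.3, 29.9, 38.5 and 22.2 CPM in GFAP-IL6 (log2 fold change -0.28, adjusted p = 0.837). Of 11 tested mural cell genes all 11 had a positive log2 fold change, against 5834 of all 11773 genes. Of the 11, 2 had a WT mean below the count filter and entered the fit through the GFAP-IL6 libraries, Abcc9 among them. The list medians were 0.49 and 0.52, and the summed level was 168 to 197 CPM in WT and 239 to 287 CPM in GFAP-IL6. The potassium channel subunit Abcc9 had the smallest p of them, at 1.11, 1.504, 1.95 and 1.86 CPM in WT and 2.896, 2.799, 5.99 and 5.91 CPM in GFAP-IL6 (log2 fold change 1.45, SE 0.44, adjusted p = 0.439). None of the mural genes was called in either fit. Fibroblast and meningeal genes, at medians of 0.021 and 0.15, and integrin and matrix genes, at 0.40 and 0.19, had no call but Spint1.

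No gene was called lower in the edgeR fit of 8 libraries or without GFAP-IL6 4. The lower genes with the smallest unadjusted p whose groups did not overlap are given as a description. Etnppl, an ethanolamine phosphate lyase of astrocytes, held 26.01, 23.3, 31.2 and 19.5 CPM in WT and 12.5, 14.9, 14.8 and 12.4 CPM in GFAP-IL6 (log2 fold change -0.92, SE 0.23, adjusted p = 0.143). Each GFAP-IL6 library was under each WT library, and the value without GFAP-IL6 4 was -0.86 (adjusted p = 0.0777). Ppp1r1b, the dopamine-regulated phosphatase inhibitor DARPP-32, held 114, 168, 127 and 146 CPM in WT and 101, 106, 83.7 and 58.2 CPM in GFAP-IL6 (log2 fold change -0.72, SE 0.20, adjusted p = 0.269), with GFAP-IL6 4 the lowest. Slc35f4, a solute carrier, held 24.1, 25.6, 20.6 and 22.8 CPM in WT and 13.9, 13.1, 11.99 and 16.5 CPM in GFAP-IL6 (log2 fold change -0.76, SE 0.23, adjusted p = 0.439). Here the 4 GFAP-IL6 libraries lay close together. Sil1, a nucleotide exchange factor of the chaperone BiP, held 24.1, 27.1, 28.7 and 28.7 CPM in WT and 15.6, 22.4, 17.8 and 14.5 CPM in GFAP-IL6 (log2 fold change -0.71). Arfgap3, a Golgi GTPase activator, held 24.4, 28.6, 24.2 and 21.1 CPM in WT and 16.5, 13.1, 17.98 and 10.6 CPM in GFAP-IL6 (log2 fold change -0.77). The next were Rasl11b (-0.65), 0610009L18Rik (-0.79), Cdk5rap3 (-0.70), the mitochondrial thiolase Acaa2 (-0.65) and Plcxd1 (-1.13), with adjusted p-values from 0.48 to 0.617. With the weight of GFAP-IL6 4 reduced by limma's quality weights, Ppp1r1b and Slc35f4 were called lower, and with the length trend of each library removed Etnppl was, so the calls on these 3 depend on the fit.

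**Figure D5:**
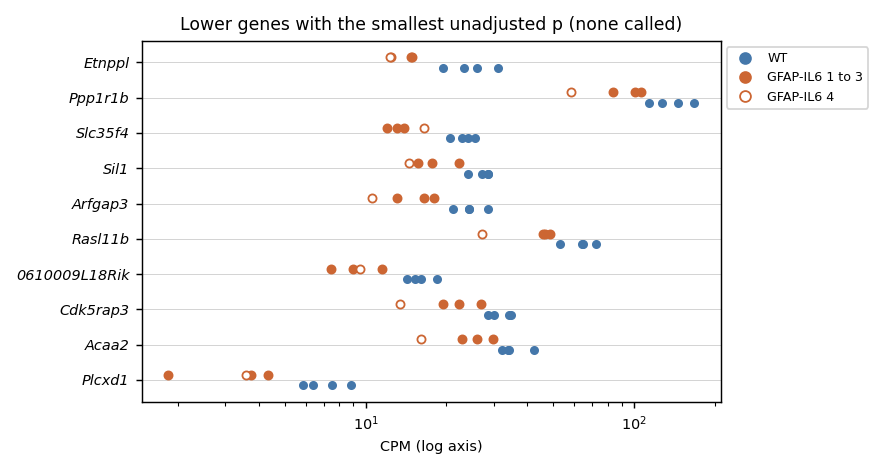
CPM on a log axis (x) of the 10 lower genes with the smallest unadjusted p among those whose groups do not overlap (y), 1 point a library. All GFAP-IL6 points lie left of all WT points by the way the genes were chosen, and none passed the adjusted threshold.

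Neuronal transmission and ion channel classes had no call in either direction in the edgeR fits with and without GFAP-IL6 4, and their medians moved with that library. Glutamatergic transmission genes (43 tested) had a median of 0.17 with 8 libraries and -0.013 without GFAP-IL6 4. Voltage-gated ion channel genes (55 tested) had medians of 0.16 and -0.065, synaptic vesicle release genes (44 tested) of 0.07 and -0.038, and GABA receptor genes (17 tested) of 0.022 and -0.17. These lists hold long genes, with median lengths of 4899, 5437, 5737 and 5883 bases against 3273 for all tested genes. Camk2a, the kinase of excitatory synapses, held 187, 205, 199.5 and 192 CPM in WT and 172, 222, 189 and 748 CPM in GFAP-IL6. The high value in GFAP-IL6 4 made its log2 fold change 0.74, which was -0.045 without that library. Gabra2, a GABA-A receptor subunit, held 66.1, 41.4, 50.9 and 53.7 CPM in WT and 69.8, 69.97, 69.9 and 115 CPM in GFAP-IL6 (log2 fold change 0.58, 0.35 without GFAP-IL6 4), and neither value was called.

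Cortical layer, interneuron and striatal genes had no call in the edgeR fit of 8 libraries or without GFAP-IL6 4. The medians of all 3 lists were below 0 in both fits. With no filter on low counts edgeR called the striatal Ppp1r1b lower. Of 28 tested excitatory and layer genes 2 were lower at an unadjusted p under 0.05 (against 1.5% of all genes), with medians of -0.038 and -0.13. The deep layer complexin Cplx3 held 59.8, 42.9, 48.97 and 44.6 CPM in WT and 33.9, 26.1, 43.8 and 16.1 CPM in GFAP-IL6 (log2 fold change -0.75, SE 0.24, adjusted p = 0.5398). Among interneuron genes the serotonin receptor Htr3a held 8.58, 6.77, 7.23 and 5.704 CPM in WT and 4.06, 4.66, 3.46 and 3.58 CPM in GFAP-IL6 (log2 fold change -0.91, SE 0.35, adjusted p = 0.751), with no overlap. The list had medians of -0.086 and -0.13. Of 13 tested striatal genes, Ppp1r1b among them, 4 were lower at an unadjusted p under 0.05 (against 1.5% of all genes), and the medians were -0.24 and -0.20. Their summed level was 495 to 754 CPM in WT and 548 to 640 CPM in GFAP-IL6, so these markers of a neighbouring region varied among WT libraries. Ttr, the choroid plexus transthyretin, held 72.5, 111, 3355 and 52.7 CPM in WT and 149, 335, 138 and 61.8 CPM in GFAP-IL6. WT 3 alone carried most of it, and the groups otherwise overlapped (log2 fold change -2.41, adjusted p = 0.653).

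Activity-dependent genes included Arc, a cytoskeletal protein of active synapses, at 37.6, 27.1, 45.4 and 58.2 CPM in WT and 114, 93.3, 72.2 and 57.4 CPM in GFAP-IL6. GFAP-IL6 1 to 3 were above WT and GFAP-IL6 4 was within it, and Arc was called without that library, at 1.05 (adjusted p = 0.00155), and not with it by edgeR (log2 fold change 0.92, adjusted p = 0.165), whereas limma with quality weights called it with all 8 (adjusted p = 0.000615). By edgeR it was the only call of 29 tested genes, against 0.654% of all genes without GFAP-IL6 4. The list medians were 0.15 and 0.072. Egr2, an activity-induced transcription factor, lay on the other side, at 6.64, 6.77, 8.35 and 5.97 CPM in WT and 2.03, 0.933, 5.303 and 5.91 CPM in GFAP-IL6 (log2 fold change -0.80, adjusted p = 0.835). Circadian clock genes had medians of 0.13 and 0.027 and glucocorticoid targets of 0.08 and 0.037, with no calls. Hsd11b1, which regenerates active glucocorticoid, held 59.8, 71.5, 56.5 and 68.6 CPM in WT and 54.2, 42.9, 54.6 and 28.3 CPM in GFAP-IL6 (log2 fold change -0.55, SE 0.21, adjusted p = 0.748), without overlap.

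Myelin and housekeeping classes had no gene called in the edgeR fit of 8 libraries. Mature oligodendrocyte and myelin genes had medians of -0.055 and 0.034, and Opalin, a myelin membrane protein, held 63.9, 83.5, 86.3 and 59.03 CPM in WT and 62.6, 41.05, 79.5 and 27.2 CPM in GFAP-IL6 (log2 fold change -0.49, -0.19 without GFAP-IL6 4). Oligodendrocyte progenitor genes had medians of 0.32 and 0.10, and the proteoglycan Cspg4, which mural cells also express, held 2.77, 3.01, 2.504 and 1.72 CPM in WT and 6.66, 1.87, 6.23 and 8.24 CPM in GFAP-IL6 (log2 fold change 1.36, SE 0.42, adjusted p = 0.457). Nuclear oxidative phosphorylation genes, with short transcripts, had a median of -0.21 over 75 tested, which was -0.054 without GFAP-IL6 4. By library that median difference from WT was -0.038, -0.12 and -0.069 in GFAP-IL6 1 to 3 and -0.69 in GFAP-IL6 4. Constitutive proteasome genes moved from -0.20 to -0.02 and ribosomal protein genes from -0.14 to -0.053. Cholesterol synthesis (-0.11 and -0.047), heat shock and chaperone (-0.038 and 0.05), iron (0.052 and 0.23) and mitochondrially encoded genes (-0.039 and -0.089) had no call. Reference genes of neurons and of myelin, named after their values were seen, were present in every library. The vesicle protein Snap25 held 4561, 3726, 4269 and 4428 CPM in WT and 4209, 4079, 3878 and 3107 CPM in GFAP-IL6, the GABA enzyme Gad1 219, 232, 268 and 257 CPM in WT and 197, 206, 236 and 244 CPM in GFAP-IL6, and the myelin protein Mbp 3562, 4778, 5128 and 3555 CPM in WT and 4361, 3304, 5229 and 1597 CPM in GFAP-IL6.

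The naming rule also gave 1 member on each side for every list without a call, and values of those not yet given moved in both directions without GFAP-IL6 4. On the higher side GFAP-IL6 4 was the top library for the vesicle sensor Syt7 (49.8, 33.8, 50.1 and 51.1 CPM in WT and 41.1, 51.3, 59.02 and 124 CPM in GFAP-IL6), the calcium channel Cacna1d (17.99, 15.8, 17.8 and 15.5 CPM in WT and 21.1, 25.2, 17.1 and 43.2 CPM in GFAP-IL6) and the lipid exporter Abca1 (11.6, 4.51, 11.7 and 14.5 CPM in WT and 10.4, 10.3, 12.7 and 29.03 CPM in GFAP-IL6). Their log2 fold changes of 0.54, 0.65 and 0.50 became 0.065, 0.26 and -0.047 without it. The same held for the nitric oxide synthase Nos1 (0.76 and 0.22), the gap junction gene Gjc3 (0.89 and 0.49), the chaperone Calr (0.40 and 0.19), the transferrin receptor Tfrc (0.43 and 0.25), the striatal phosphodiesterase Pde10a (0.39 and 0.22) and the clock factor Tef (0.35 and 0.19). Dusp1, a phosphatase induced early by stress and glucocorticoid, moved away from 0, at 0.53 and 0.67, from 28.2, 18.1, 35.9 and 27.99 CPM in WT and 51.8, 43.8, 41.7 and 29.9 CPM in GFAP-IL6. So did the respiratory chain gene Atp5l (0.22 and 0.34), the mitochondrially encoded mt-Nd6 (0.16 and 0.33), the ependymal Tmem212 (0.20 and 0.36), the growth factor Igf2 (0.53 and 0.56), the ribosomal protein Rpl17 (0.02 and 0.13) and the proteasome subunit Psmd2 (0.0059 and 0.064). On the lower side GFAP-IL6 4 was the lowest library for the clock factor Dbp (112, 95.5, 115 and 90.7 CPM in WT and 77.3, 99.8, 77.7 and 51.6 CPM in GFAP-IL6), the proteasome subunit Psmb5 (96.9, 93.3, 82.4 and 96.4 CPM in WT and 95.6, 60.6, 74.9 and 52.9 CPM in GFAP-IL6) and the sterol enzyme Nsdhl (52.6, 30.8, 47.6 and 37.7 CPM in WT and 38.8, 27.1, 34.6 and 16.5 CPM in GFAP-IL6). Their log2 fold changes were -0.49, -0.41 and -0.58 with it and -0.34, -0.25 and -0.33 without it. The respiratory chain subunit Cox7b (-0.32 and -0.17), the mitochondrially encoded mt-Nd3 (-0.52 and -0.42), the GABA-A receptor subunit Gabrd (-0.27 and -0.17), the potassium channel subunit Kcnab1 (-0.31 and -0.24) and the ribosomal protein Rps2 (-0.25 and -0.10) also came closer to 0. Smaller shifts toward 0 were seen for the progenitor gene Lhfpl3 (-0.37 and -0.31), the syntaxin Stx1a (-0.24 and -0.22) and the mitochondrial chaperone Hspa9 (-0.23 and -0.18), and larger ones for the sugar transporter Slc2a5 (-0.51 and -0.20), Igfbp2 (-0.42 and -0.24), Tapbpl (-0.60 and -0.38) and the class II chaperone gene H2-DMa (-0.24 and -0.061). The kainate receptor subunit Grik1 moved away from 0, from -0.65 to -0.95. None of the genes from Syt7 to Grik1 was called in either edgeR fit.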

How the data were processed

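The table of 3'Pool-seq reads per gene held raw counts, deposited without normalization by the authors, who trimmed poly(A), aligned single-end reads with STAR 2.4 to the mouse genome (mm10) and assigned unique alignments to GENCODE genes with featureCounts. The strand setting of the counting is not given in the sources used here. From 33000 genes, the 8 libraries at 50 ng were used, with totals of 1071895 to 7538356 counts.

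Counts were tested in edgeR 4.0.16 (R 4.3.3; TMM, filterByExpr, quasi-likelihood, no covariates), with Benjamini-Hochberg adjustment over all 11773 tested genes. Standard errors come from the F statistic. DESeq2 1.42.0 (the authors' tool), limma 3.58.1 with quality weights, DESeq2 size factors, other filters, thinning, a replicate block and leaving out each library were alternatives, and length-trend removal was added after seeing the data. The fit was also run on simulated counts. These had less spread between replicates than the 8 libraries and no outlying library, so the check does not cover a library such as GFAP-IL6 4. Il6 was tested by exact permutation over 70 arrangements in scipy 1.17.1.

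Named genes were Il6, the 20 called higher genes with the smallest p, called genes under 2-fold, the 10 lower genes described, and for each of 41 lists up to 3 called members, or the member with the smallest p on each side. Members and lists were chosen with earlier results of these data known. Of 1279 list entries, 1275 were in the table. Lists overlapped, with 72 genes in multiple lists, so the same call can count in several of them. Coordinates are from GENCODE M21 on GRCm38, matched by identifier for 32593 genes, and promoters from RefSeq. Plots were drawn with matplotlib 3.10.9. Some genes that the naming rule gives are not reported here.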

Additional observations from a re-analysis of the deposited data

Results flagged for a closer look

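In each group of 4 libraries, a library was singled out where its gap to the nearest other library was a larger share of the group's range than Dixon's 95% critical value. Among 354 such groups, over the CPM of the genes listed, the list medians and the library facts, 31 were singled out, and chance alone gives about 1 in 20. GFAP-IL6 4 accounted for 14 of the 31, and the causes were not tested.

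By CPM, GFAP-IL6 4 was far under its replicates for Pycard (23.3) and Rasl11b (27.2). It was far over them for Gjc3 (24.6), Camk2a (748), Osmr (12.01), Gabra2 (115), Calr (237) and Abca1 (29.0). By median log2 difference of a list from the WT mean, GFAP-IL6 4 was high for glutamatergic transmission (0.55), synaptic vesicle release (0.43) and integrin and extracellular matrix (0.81). It was low for nuclear oxidative phosphorylation (-0.69), the constitutive proteasome (-0.80) and chemokines (-0.078).

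Other GFAP-IL6 libraries were singled out for Ptprc in GFAP-IL6 2 (11.2 CPM) and Ifi30 in GFAP-IL6 3 (14.99 CPM), both high, and for mitochondrially encoded genes in GFAP-IL6 3 (median difference -0.18).

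Among WT libraries, WT 3 held 3355 CPM of the choroid plexus gene Ttr, where the other WT libraries held 52.7 to 111 CPM, and it was also high for C4b (10.02 CPM) and Psmb8 (12.8 CPM). WT 2 was high for Lhfpl3 (39.9 CPM) and Osmr (3.76 CPM) and low for Syt7 (33.8 CPM) and Stat3 (15.8 CPM). By list median WT 2 stood apart for MHC class I (0.022), Fc receptor and phagocytic signalling (-0.26) and glucocorticoid targets (-0.098). WT 1 was high for H2-Ab1 (5.54 CPM) and the constitutive proteasome (0.098) and low for Grn (36.5 CPM), and WT 4 was high for Wfdc17 (2.79 CPM).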

How the results depend on the processing

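The count of genes called higher, 33 with 8 libraries, was 11 to 78 when single libraries were left out, and the DEG count, also 33, was 11 to 59. GFAP-IL6 4 alone raised the count when left out, to 78 genes (59 DEGs). Leaving out WT 1, WT 2 or WT 4 or any other GFAP-IL6 library gave 11 to 17, and WT 3 gave 23. Limma with quality weights, which gave GFAP-IL6 4 a weight of 0.114 against 1.06 to 1.66 elsewhere, called 83 higher (61 DEGs) and 2 lower. With no filter on low counts there were 90 higher (80 DEGs) and 3 lower, Sgsm1, Ppp1r1b and Ttr. Removing each library's length trend, an alternative chosen after seeing the data, gave 54 higher, 46 DEGs and 1 lower. Thinning to the lowest total gave 23 higher, of which 21 were DEGs. DESeq2 (44), DESeq2 size factors (33) and a mean CPM of at least 5 (25) stayed within 1.5 times the count of higher genes, and all 33 genes were called by DESeq2, limma, the length-corrected fit and the fit without a filter.

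Il6 was higher by 4.68 CPM, and by 3.47 to 6.03 CPM without single libraries, where the exact permutation p was 0.0571, the smallest that 3 against 4 allows.

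The labels link same-numbered WT and GFAP-IL6 libraries by the number only. Whether such libraries were also handled together is not stated and was not tested. Their deviations correlated at 0.0984, 0.0458, 0.229 and 0.160, and every GFAP-IL6 library but GFAP-IL6 2 correlated best with its own number. The replicate block gave 39 higher genes, 0 lower and 36 DEGs.

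No called gene reversed direction. Of 506 checks of a called gene against an alternative that tested it, 129 fell short of the threshold, nearly all without single libraries. Genes that an alternative's filter dropped were not checked there. Fam187a was such a gene with thinning and with a mean CPM of at least 5, which called 23 and 25 genes higher. Depth limits what can be said of genes below about 2.77 CPM in both groups, and the spread that GFAP-IL6 4 adds limits changes under 2-fold.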
